A study of Rattus norvegicus with 6 samples.

Results

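Myelin genes code for the proteins of the membrane sheath that insulates axons, made by oligodendrocytes in the brain and spinal cord and by Schwann cells in peripheral nerve. Here 7 of them were followed in arteries of the brain from Dahl rats, which are bred to become hypertensive when fed much salt. The genes were taken by their symbol in the platform's annotation: Mbp, Mag, Mog, Cnp, Mobp and Cldn11, which oligodendrocytes make, and Pmp22, the member of Schwann cell myelin. All 7 were present, as 13 of 15866 probe sets and 7 of 10411 named genes. Where a gene had several probe sets, the one with the highest mean over the arrays was its main probe set, and the other 6 probe sets, of 5 genes, served as a check.

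High salt rats ate chow with 8% NaCl and low salt rats chow with 0.4% NaCl, from 7 weeks of age, and both were on low salt chow before that. For the high salt diet the sample characteristics state 11 weeks and the protocol 12 weeks, and for the low salt diet both state 12 weeks. Each diet had 3 arrays, each hybridised with the pooled RNA of 3 rats, or 18 rats on 6 arrays. The vessels were primary branches off the ring at the base of the brain, cut out whole, so that brain surface and nerve can come along with the wall. No label gives the sex of the rats or says which pools were frozen and which kept in a preservative.

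Compact myelin is built from stacked membrane whose cytosolic faces are held together by basic proteins and whose outer faces are joined by adhesion proteins. The central and peripheral sheaths share some of their proteins, compact or not, Mbp, Mag and Cnp among them, while Mog and Mobp belong to the central sheath. Cldn11 is the claudin of central myelin and is also made by cells of the arachnoid barrier of the brain's coverings. Pmp22 is a small membrane protein of compact peripheral myelin whose gene dosage underlies inherited neuropathies, and many other cells, fibroblasts among them, make it too. Membership in the list therefore does not make a gene's signal in an artery a signal of myelin. In pooled tissue, fewer cells of a type and less RNA per cell cannot be told apart.

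No myelin gene passed the test of high salt against low salt. Mbp was the member with the largest difference, 1.23 ± 0.49 (SE) log2 units higher after high salt, and it overlapped between diets. Mobp, Cnp and Cldn11 were higher by 0.41, 0.24 and 0.22 log2 units, and Mag, Mog and Pmp22 differed by -0.24, -0.13 and -0.08. The probe set of Mog was dim in both diets and that of Mag lay below the array median, and Pmp22 was bright and even. The low salt arrays differed among themselves: replicate 2 had more Mbp than replicates 1 and 3 by 1.55 log2 units, a larger gap than the one between the diets.

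**Figure D1:**
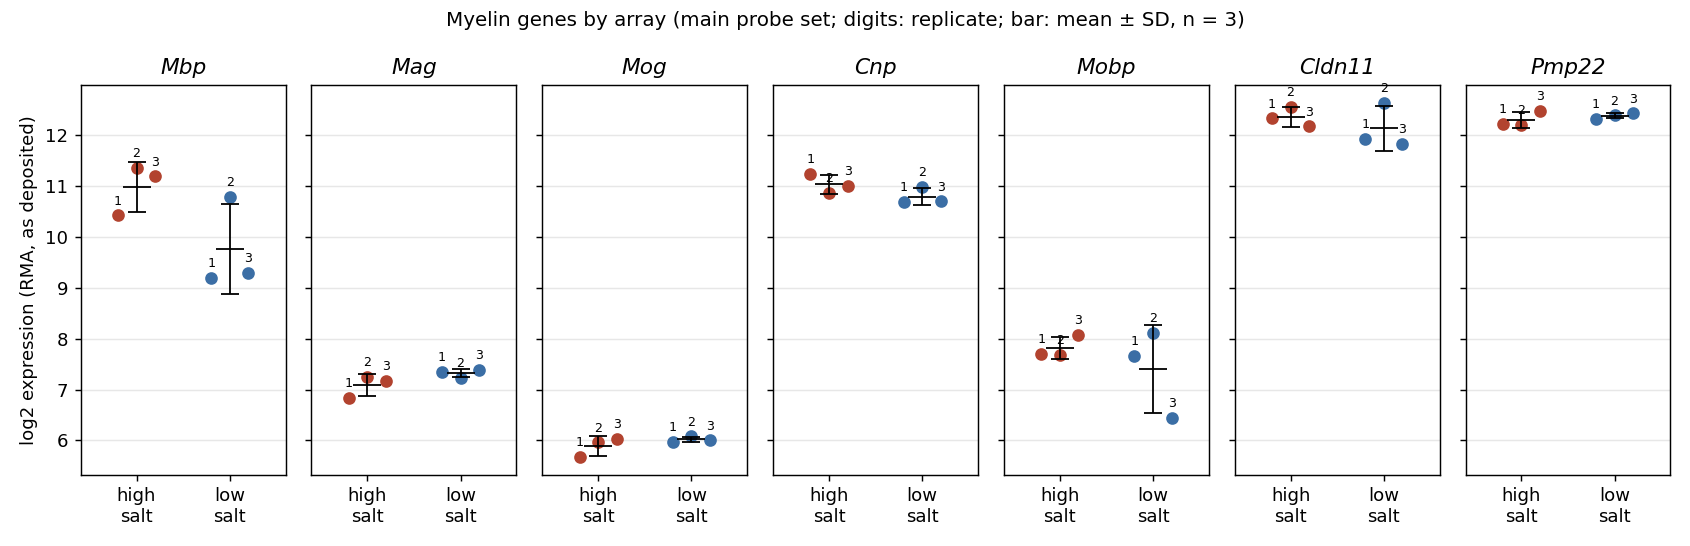
Log2 expression (vertical axis, values as deposited) of the main probe set of each myelin gene on the 3 high salt arrays (red, left) and the 3 low salt arrays (blue, right), with digits for the replicate and bars for the mean ± SD. Mbp runs from 9.20 to 11.35 over the 6 arrays while Pmp22 stays between 12.21 and 12.49, and low salt replicate 2 lies within the range of the high salt arrays for Mbp and Cnp and above it for Mobp and Cldn11.

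The fit was made with limma, which fits each probe set by itself and moderates its variance with that of the others, and Benjamini-Hochberg adjustment over all 15866 probe sets. An adjusted p below 0.05 was called. Over all probe sets 0 were called (0.0%), with the lowest adjusted p at 0.540. Without low salt replicate 2 it was 0.05015, still with 0 called. Of the 13 member probe sets 0 were called and 2 had an unadjusted p below 0.05, both higher, against 5.33% of all probe sets (846 of 15866), or 4.63% counting the higher ones. The arrays of the diets did not overlap for 2 of the 13, 1 higher and 1 lower, and for 0 of the 7 main probe sets, against 11.2% of all probe sets (7.23% higher and 3.93% lower). Of the main probe sets 4 were higher and 3 lower after high salt, where 60.0% of all named genes were higher. Of the 6 other probe sets, 4 of them below the lower quartile on every array, 1 was higher and 5 lower. The scaling of the arrays bears on these signs: the median gene was 0.07 higher as deposited, -0.06 with each array centred on its median and -0.02 after quantile normalization.

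The brightness of a probe set depends on its probes as well as on its transcript, so levels are compared here between arrays and not between genes. As a guide to what is dim, the lower quartile of an array lay between 6.53 and 6.65 log2 units and the upper quartile between 9.22 and 9.71. The tissue label was met by the smooth muscle markers Tagln and Myh11, which ran from 13.50 to 13.55 and from 13.17 to 13.34 on high salt arrays, against 13.33 to 13.92 and 13.13 to 13.67 on low salt arrays.

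Mbp, myelin basic protein, binds the cytosolic faces of the myelin membrane to each other. Its main probe set read 10.43, 11.35 and 11.19 log2 units on high salt replicates 1 to 3, against 9.20, 10.80 and 9.30 on low salt replicates 1 to 3. Low salt replicates 1 and 3 were the lowest of the 6, and low salt replicate 2 lay above high salt replicate 1, so that the diets overlapped. Means were 10.99 ± 0.50 after high salt and 9.77 ± 0.89 after low salt (SD, n = 3 each). The difference of 1.23 ± 0.49 (SE), or 2.34-fold, had a 95% interval from 0.0099 to 2.44. By limma its unadjusted p was 0.0487 and its adjusted p 0.803. Median centring gave 1.10 and quantile normalization 1.01. Leaving out 1 array at a time gave values from 0.94, without low salt replicate 1, to 1.74, without low salt replicate 2.

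The other Mbp probe set did not show this pattern. It read 6.12, 6.35 and 6.29 on the high salt arrays and 6.64, 6.26 and 6.32 on the low salt arrays, with low salt replicate 1 the highest. All 6 values lay below their array's lower quartile, and the difference was -0.15 ± 0.14 (SE). The gene makes many splice forms, and the parts of the transcript that each probe set reads were not analysed here. The mean of both probe sets gave 0.54 for Mbp.

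Cnp, a cyclic nucleotide phosphodiesterase of the uncompacted channels of myelin, had 2 probe sets that pointed the same way. The main one read 11.24, 10.87 and 11.01 on the high salt arrays, against 10.69, 10.98 and 10.70 on the low salt arrays. Low salt replicate 2 again stood above the other two of its diet, within the range of the high salt arrays. The difference was 0.24 ± 0.14 (SE, 95% interval -0.11 to 0.60, adjusted p = 0.803, limma). The dimmer probe set read 7.30, 7.52 and 7.54 on the high salt arrays and 7.13, 7.14 and 7.26 on the low salt arrays. Every high salt value was above every low salt value there, by a difference of 0.28 ± 0.11 (unadjusted p = 0.0424, adjusted p = 0.803 by limma). Scaling moved the main probe set, to 0.11 under median centring and 0.02 under quantile normalization. Without high salt replicate 1 it stood at 0.14.

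Mobp, a small basic protein of central compact myelin, had 3 probe sets. The main one read 7.70, 7.68 and 8.07 on the high salt arrays, against 7.66, 8.12 and 6.45 on the low salt arrays. Low salt replicate 3 stood apart at the bottom, below its array's lower quartile, and low salt replicate 2 was the highest of the 6. The difference of 0.41 ± 0.43 (SE, 95% interval -0.66 to 1.47, adjusted p = 0.825, limma) rested on low salt replicate 3: without it the value was -0.07. The value was 0.76 when low salt replicate 2 was left out instead, and 0.05 with the mean of the 3 probe sets. The other 2 probe sets were below the lower quartile on every array. One read 6.29 to 6.38 on the high salt arrays and 6.46 to 6.53 on the low salt arrays, without overlap and by a difference of -0.17 ± 0.09. The last read 4.94 to 5.01 on the high salt arrays and 4.96 to 5.15 on the low salt arrays.

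Cldn11 forms the tight junction strands between the layers of central myelin. Its main probe set, among the brightest of the array, read 12.34, 12.56 and 12.18 on the high salt arrays, against 11.94, 12.64 and 11.84 on the low salt arrays. The order of the low salt arrays was that of Mbp and Cnp in one respect, with replicate 2 above replicates 1 and 3, here by 0.76 log2 units. The difference was 0.22 ± 0.24 (SE, 95% interval -0.38 to 0.82, adjusted p = 0.832, limma). Median centring gave 0.09 and quantile normalization -0.0036. With low salt replicate 2 left out the value was 0.47, with low salt replicate 3 left out 0.07, and with low salt replicate 1 or high salt replicate 2 left out 0.12. The mean of both probe sets gave 0.06. The other probe set, below the lower quartile on every array, read 6.13 to 6.25 on the high salt arrays and 6.17 to 6.37 on the low salt arrays.

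Mag, an adhesion protein of the innermost myelin layer facing the axon, had 1 probe set. It read 6.84, 7.25 and 7.18 on the high salt arrays, against 7.36, 7.23 and 7.39 on the low salt arrays. High salt replicate 1 was the lowest of the 6, and the diets overlapped in a narrow range. The difference was -0.24 ± 0.14 (SE, adjusted p = 0.803, limma), -0.37 after median centring and -0.11 without high salt replicate 1. Mog, on the outermost face of the central sheath and a classical target of antibodies in demyelinating disease, also had 1 probe set. It read 5.68, 5.96 and 6.04 on the high salt arrays and 5.98, 6.08 and 6.0 on the low salt arrays. All 6 values were below their array's lower quartile, and Mog was the 1 main probe set of the 7 for which this held. The difference was -0.13 ± 0.12 (SE, adjusted p = 0.813, limma), -0.26 after median centring and -0.02 without high salt replicate 1. Low salt replicate 2 differed from the mean of replicates 1 and 3 by -0.14 log2 units for Mag and 0.09 for Mog, beside 1.55 for Mbp and 1.06 for Mobp.

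Pmp22 read 12.23, 12.21 and 12.49 on the high salt arrays, against 12.33, 12.39 and 12.43 on the low salt arrays. The 6 values spanned 0.28 log2 units, and the low salt arrays lay inside the range of the high salt arrays. The difference was -0.08 ± 0.11 (SE, adjusted p = 0.865, limma), with a 95% interval from -0.36 to 0.20 that leaves room for a small change in either direction. Median centring gave -0.21 and quantile normalization -0.23. The value was -0.17 without high salt replicate 3, and -0.03 without high salt replicate 2. The other probe set read 9.28, 9.43 and 9.81 on the high salt arrays and 9.75, 9.27 and 9.63 on the low salt arrays, a difference of -0.04 ± 0.19.

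**Figure D2:**
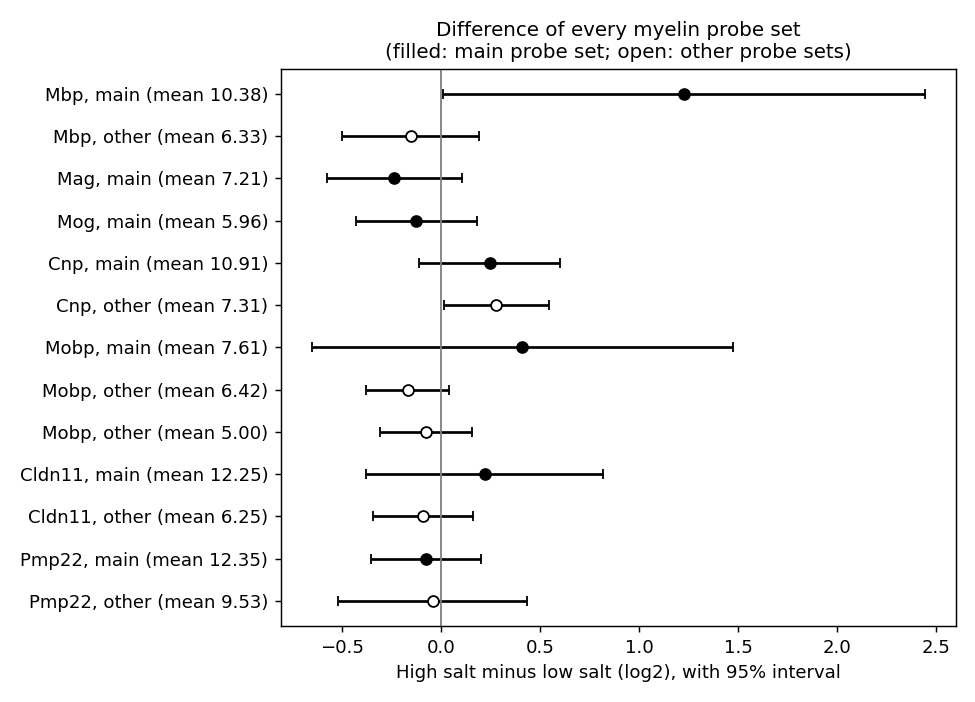
High salt minus low salt difference in log2 units (horizontal axis) with its 95% interval for all 13 probe sets, filled for main and open for other probe sets, with the mean level over 6 arrays in each label. The interval of the main Mbp probe set runs from 0.0099 to 2.44 and that of the dimmer Cnp probe set from 0.01 to 0.54, both before adjustment, and the other 11 include 0.

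Set against the Schwann cell member, the mean of the oligodendrocyte members differed more between the low salt arrays than between the diets. By themselves, Mbp, Cnp, Mobp and Cldn11 did so too. Mag and Mog did not: they spanned 0.16 and 0.10 log2 units over the low salt arrays, beside differences of -0.24 and -0.13. Mbp, at 1.23, contributed most to the difference of the mean. The oligodendrocyte mean minus Pmp22, taken within each array, was -3.19, -2.93 and -3.21 log2 units on the high salt arrays. On the low salt arrays it was -3.53, -3.08 and -3.82. Low salt replicate 2 fell inside the high salt range, and replicates 1 and 3 below it. The diet means were -3.11 ± 0.16 and -3.48 ± 0.37 (SD, n = 3 each), a difference of 0.37, which was 0.20 when low salt replicate 3 was left out and 0.56 when it was replicate 2. With the mean of each gene's probe sets it was 0.15. The median difference of the 6 oligodendrocyte members was 0.23, beside 0.07 over all named genes. It moved to 0.10 under median centring, 0.0098 under quantile normalization, 0.06 with the mean of each gene's probe sets and -0.0021 without low salt replicate 3. No p is given for these summaries, since the members were chosen with earlier results of these data known.

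The stretches before the starts of the genes whose main probe sets were higher, and of the even Pmp22, are printed to show how these members compare outside the arrays. RefSeq's tables for the rat assembly GRCr8 held such stretches for 6 of the 7 members, in 7 windows. For Mbp the printed window is the one before the upstream of its 2 tabulated starts. The window before the other start lies inside the gene, may be coding sequence of longer Mbp transcripts, and is not printed. Which of the 2 starts the Mbp transcripts of myelin use was not analysed, so the printed window need not be theirs. Each window is the 250 bases before a tabulated start, 5′ to 3′ on the gene's strand. For Mobp and Mag this start lies inside the gene's full span, so part of each of these windows is within the gene. The span of Mobp begins at 128747117, and that of Mag, on the minus strand, at 95291133. Capitals mark matches, on either strand, to ACAAAG (the core that Sox proteins bind), CAGCTG (an E-box, its own reverse complement) or GGGCGG (a GC box), and no matches overlap in these windows.
Cnp, GRCr8 chr10:86011254-86011503, plus strand: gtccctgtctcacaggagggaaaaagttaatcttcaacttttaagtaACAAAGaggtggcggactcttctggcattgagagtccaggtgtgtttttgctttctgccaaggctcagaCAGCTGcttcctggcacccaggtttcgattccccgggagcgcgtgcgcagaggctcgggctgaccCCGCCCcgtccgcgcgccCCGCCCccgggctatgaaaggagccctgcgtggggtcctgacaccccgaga
Mobp, GRCr8 chr8:128746982-128747231, plus strand: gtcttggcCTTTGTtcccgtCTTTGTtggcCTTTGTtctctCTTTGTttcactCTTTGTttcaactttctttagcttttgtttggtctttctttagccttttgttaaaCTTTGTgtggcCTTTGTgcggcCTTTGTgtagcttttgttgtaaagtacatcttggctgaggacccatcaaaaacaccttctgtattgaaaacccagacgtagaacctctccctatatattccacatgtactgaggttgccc
Cldn11, GRCr8 chr2:114149540-114149789, minus strand: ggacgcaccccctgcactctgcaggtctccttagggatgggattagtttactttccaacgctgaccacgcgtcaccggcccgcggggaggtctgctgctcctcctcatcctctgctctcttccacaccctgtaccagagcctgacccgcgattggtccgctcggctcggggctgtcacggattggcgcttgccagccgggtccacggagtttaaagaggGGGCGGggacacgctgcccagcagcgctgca
Mbp, GRCr8 chr18:78130402-78130651, plus strand: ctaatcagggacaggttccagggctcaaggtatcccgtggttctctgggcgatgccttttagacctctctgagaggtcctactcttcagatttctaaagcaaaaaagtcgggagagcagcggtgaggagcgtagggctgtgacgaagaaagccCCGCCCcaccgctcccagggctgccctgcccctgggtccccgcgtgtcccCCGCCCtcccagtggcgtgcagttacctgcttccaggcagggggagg
Pmp22, GRCr8 chr10:48294682-48294931, plus strand: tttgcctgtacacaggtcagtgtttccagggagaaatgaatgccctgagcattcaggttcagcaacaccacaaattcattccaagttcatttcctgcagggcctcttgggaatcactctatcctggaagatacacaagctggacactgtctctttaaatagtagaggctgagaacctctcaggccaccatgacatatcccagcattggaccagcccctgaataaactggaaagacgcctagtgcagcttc

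The windows differed in make-up. Mobp held 8 matches to ACAAAG or its reverse complement, while Cnp and Mag held 1 each, and Cldn11, Pmp22 and the printed window of Mbp held 0. With the unprinted Mbp window left out, 3 of 6 windows held this motif, where 16.3% of all 33469 windows in the table did. CAGCTG was in 1 of these 6, that of Cnp, where 12.0% of all windows held it. GGGCGG was in 3 of 6, with 2 matches each for Cnp and Mbp and 1 for Cldn11, where 30.5% of all windows held it. The unprinted Mbp window held 1 match to each motif. Mag had 70.0% G and C and 6 CpG pairs, Cldn11 64.8% and 19, and the printed window of Mbp 62.0% and 12. Cnp had 60.4% and 16, Pmp22 48.0% and 1, and Mobp 41.6% and 3, beside medians of 51.2% and 5 over all windows. A match is a run of letters and not a binding site.

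Other genes of oligodendrocytes and central myelin were spread on both sides of 0. Of 35 listed, 23 were measured, 13 of them higher and 10 lower. Their median difference was 0.03, beside 0.07 over all named genes, and was -0.10 under median centring and -0.04 under quantile normalization. Of the 23, 0 were called and 3 had an unadjusted p below 0.05. Apod, a lipid carrier of glia and other cells, read 12.26, 12.20 and 12.70 on the high salt arrays, against 11.50, 11.95 and 11.50 on the low salt arrays, without overlap (0.74 ± 0.20, SE). Car2, the carbonic anhydrase of oligodendrocytes and many other cells, differed by 0.56 ± 0.20 with overlap. Gpr37, a receptor of maturing oligodendrocytes, differed by 0.34 ± 0.13 without overlap. The adjusted p was 0.803 for all 3 (limma). Sox10, the transcription factor that both myelinating cell types need, read 7.24, 7.33 and 7.04 on the high salt arrays and 8.20, 7.20 and 7.48 on the low salt arrays, and low salt replicate 1 was its highest. The brightest were the tetraspanins Cd81 (0.10 ± 0.09) and Tspan2 (-0.14 ± 0.41), both overlapping, and Apod. Opalin, Ermn and Olig2 were not analysed here. Of 10 genes of oligodendrocyte precursors 7 were measured, 6 higher and 1 lower, with a median of 0.22 (0.09 after median centring) and 0 called. Among them Pdgfra, which fibroblasts also make, differed by 0.53 ± 0.33.

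Genes of Schwann cells and peripheral nerve were spread around 0 as well. Of 25 listed, 16 were measured, 7 higher and 9 lower, with a median of -0.03 (-0.16 after median centring), 0 called and 2 at an unadjusted p below 0.05. The array means of these 16 ran from 8.04 to 8.06 after high salt and from 7.93 to 8.00 after low salt. Egr2, the factor that drives myelination in Schwann cells and is also an immediate early gene, read 10.64, 10.32 and 10.61 on the high salt arrays, against 8.39, 9.57 and 9.91 on the low salt arrays. The diets did not overlap, and the difference was 1.23 ± 0.40 (SE, adjusted p = 0.803, limma). Scn7a, a sodium channel relative of non-myelinating Schwann cells and other cells, read 9.74, 9.95 and 10.16 on the high salt arrays and 10.27, 10.63 and 10.99 on the low salt arrays. It did not overlap either, with a difference of -0.68 ± 0.21 (adjusted p = 0.803, limma). Prx, a scaffold of peripheral myelin, read 8.40, 8.46 and 8.22 on the high salt arrays and 8.87, 7.98 and 8.28 on the low salt arrays, a difference of -0.02 ± 0.24. Pmp2 was not analysed here. Markers of the autonomic nerves that run along arteries gave 0 higher and 8 lower of 8 measured, with 0 called. Their median was -0.16 (-0.29 after median centring). Most were dim, which limits what their shared sign can show. Their mean on an array lay between 6.98 and 7.42, below every array's median, and 2 of the 8 were below the lower quartile on every array. The noradrenaline transporter Slc6a2 read 7.20, 7.37 and 7.35 on the high salt arrays, below 7.81, 7.47 and 7.69 on the low salt arrays (-0.35 ± 0.12, adjusted p = 0.803 by limma). The neuropeptide gene Npy, the brightest of them, overlapped between diets (-0.19 ± 0.32).

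Relatives of Pmp22 and Cldn11 by protein family, the epithelial membrane proteins and other claudins, gave 4 higher and 6 lower of 10 measured, with a median of -0.02 and 0 called. Emp3 had the lowest p, at 11.222 to 11.515 on the high salt arrays and 10.936 to 11.222 on the low salt arrays, ranges that touch at their edge (0.28 ± 0.13, adjusted p = 0.803 by limma). Emp1 (0.35 ± 0.32) and the endothelial Cldn5 (-0.10 ± 0.20), the brightest with Emp3, overlapped between diets. Genes of the axon and its nodes, the partners of myelin, gave 3 higher and 12 lower of 15, with 0 called. Their median was -0.07 (-0.20 after median centring). This list was dim as well: its mean on an array lay between 6.91 and 7.06, and 4 of the 15 were below the lower quartile on every array. The neurofilament gene Nefm went the other way from most, with 9.02, 8.96 and 8.89 on the high salt arrays, against 8.22, 9.22 and 7.79 on the low salt arrays. There too low salt replicate 2 was the highest and replicates 1 and 3 the lowest of the 6. Cntnap1, an axonal protein of the paranodal junction, differed by -0.19 ± 0.11.

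**Figure D3:**
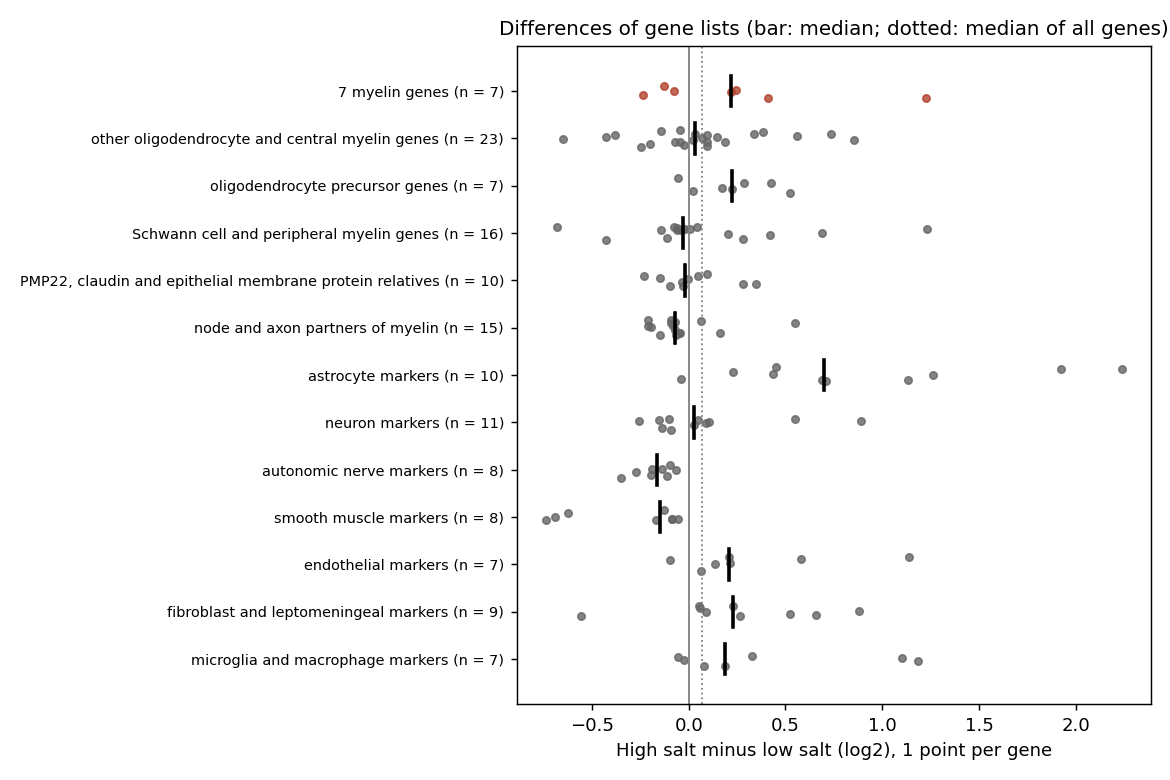
High salt minus low salt difference in log2 units (horizontal axis) of each gene's main probe set, 1 point per gene, for the 7 myelin genes (red) and the other lists, with bars at the median and a dotted line at 0.07, the median of all named genes. The myelin genes run from -0.24 to 1.23. The median of the astrocyte markers (0.70) lies furthest to the right of the dotted line. Those of the fibroblast and leptomeningeal (0.23), oligodendrocyte precursor (0.22), endothelial (0.21) and microglia and macrophage (0.19) lists also lie to its right.

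The marker lists of other cells differed in how they lay over the arrays. The mean of 10 astrocyte markers was 10.7, 10.4 and 10.4 on the high salt arrays, against 9.42, 10.7 and 8.70 on the low salt arrays, so that low salt replicate 2 was like the high salt arrays and replicates 1 and 3 were lower. Of these 10 markers 9 were higher and 0 called, and their median difference was 0.70, or 1.16 without low salt replicate 2. The water channel Aqp4 read 9.58, 9.23 and 9.66 on the high salt arrays and 6.26, 10.5 and 5.02 on the low salt arrays. The mean of 8 smooth muscle markers ran the other way, at 11.5, 11.4 and 11.3 on the high salt arrays, against 12.0, 11.1 and 12.0 on the low salt arrays. Of these 8 markers 0 were higher, 8 lower and 0 called. Their median difference was -0.15, or -0.28 after median centring and -0.48 without low salt replicate 2. The mean of 9 fibroblast and leptomeningeal markers was 11.7, 12.2 and 12.1 on the high salt arrays and 11.6, 12.0 and 11.6 on the low salt arrays, with high salt replicate 1 below replicates 2 and 3, as for Mbp. The mean of 11 neuron markers, 6 higher and 5 lower, ran from 7.56 to 7.76 on high salt arrays and from 7.38 to 7.83 on low salt arrays. It was again highest on low salt replicate 2, but not for every marker. Eno2, at 8.943, 10.342 and 8.595 on low salt replicates 1 to 3, and Nefm peaked there. Syn1, at 8.894, 8.675 and 8.732, and Rbfox3 were lowest there among the low salt arrays. The means of the endothelial and microglial lists did not have the low salt order of Mbp, and low salt replicate 3 was their highest low salt array. Single endothelial markers were at odds with each other. Kdr, at 8.833, 11.017 and 8.525 on low salt replicates 1 to 3, and Slco1a4 were highest on replicate 2. Vwf, at 12.48, 11.051 and 12.382, was lowest there, and Cldn5 and Flt1 were highest on replicate 3. The mean of 7 endothelial markers was 10.3, 10.2 and 10.4 on the high salt arrays, against 9.88, 9.89 and 10.1 on the low salt arrays, without overlap. Their median difference of 0.21 (0 called) was 0.08 after median centring and -0.05 without low salt replicate 2. The mean of 7 markers of microglia and macrophages was 9.00, 9.40 and 9.21 on the high salt arrays, against 8.57, 8.77 and 9.07 on the low salt arrays, with low salt replicate 3 above high salt replicate 1. Their median difference of 0.19 (0 called) was 0.06 after median centring and 0.08 without low salt replicate 2. The part of these cells in the differences of Mbp, Mobp, Cnp and Cldn11 was not tested.

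**Figure D4:**
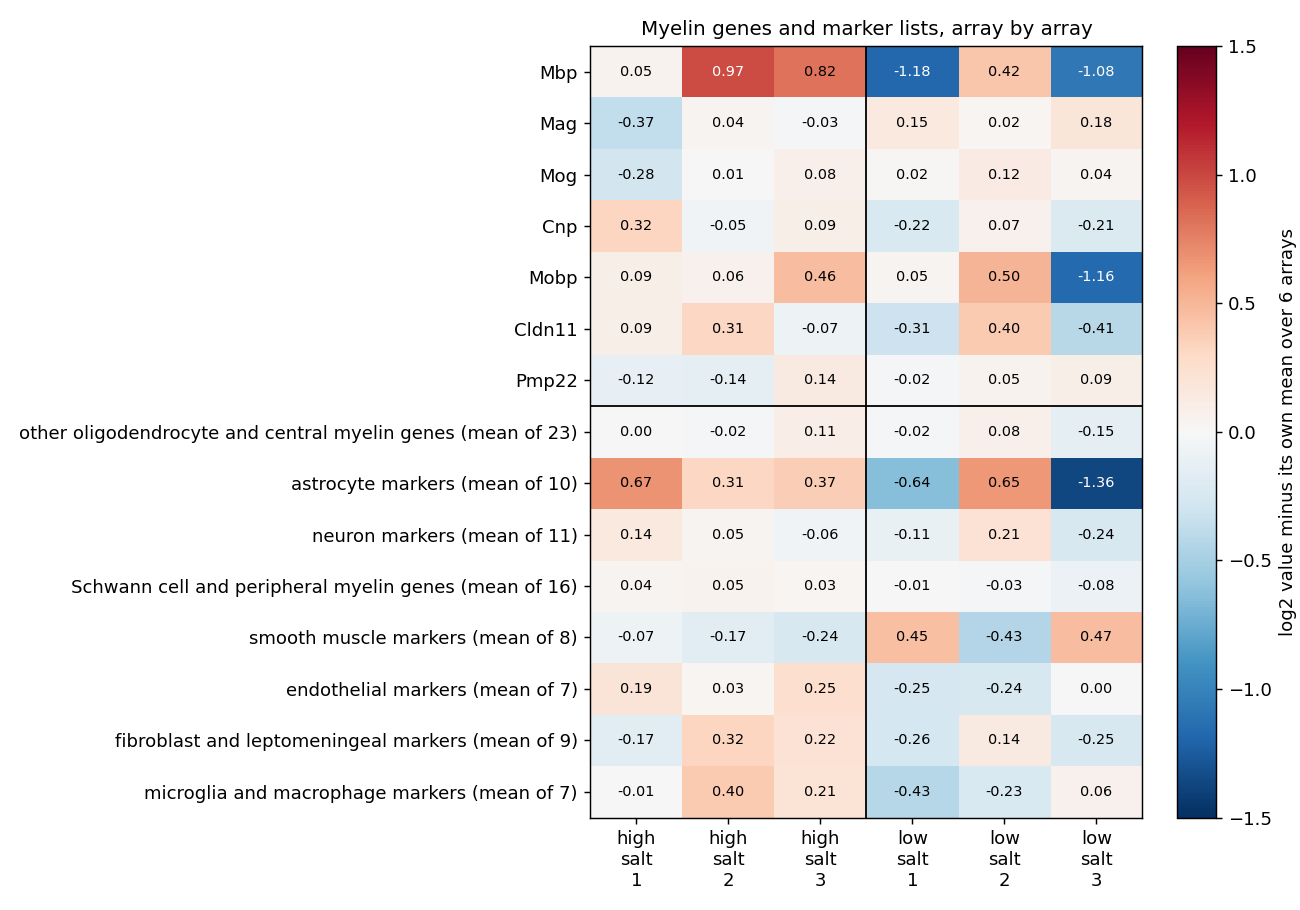
Each cell gives the log2 value on 1 array minus the mean over the 6 arrays (colour and digits), for the 7 myelin genes above the line and the means of marker lists below it, with high salt arrays on the left and low salt arrays on the right. Mbp, Cnp and Cldn11 are lowest on low salt replicates 1 and 3, as are the astrocyte, neuron, and fibroblast and leptomeningeal lists. Mobp is lowest on low salt replicate 3, and Mag, Mog and Pmp22 on a high salt array. The smooth muscle list is highest on low salt replicates 1 and 3.

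Likeness of pattern was measured as the root mean square difference between mean-centred log2 values over the 6 arrays, among 6186 genes of more than median brightness. Closest to the mean of the oligodendrocyte members were Slc44a1, a choline transporter, at 0.04 log2 units, Alg2 at 0.04, Fzd1 at 0.08, Vps45 at 0.08 and Plpp3 at 0.09, against a spread of 0.27 for that mean itself. Slc44a1 read 9.21, 9.56 and 9.54 on the high salt arrays and 9.06, 9.51 and 8.80 on the low salt arrays. Closest to Pmp22 were Cxxc1 at 0.03, Usp24 at 0.04, Exd2 at 0.04, Zfp384 at 0.05 and Tacr1 at 0.05, against a spread of 0.10. With so small a spread, many even genes come close. A search around Mbp alone was added after the values were seen. It gave Mro at 0.17, Arsb at 0.21, Abi3bp at 0.21, Wls at 0.22 and Pdpn at 0.23, against a spread of 0.85. Mro, the closest, read 8.755, 9.365 and 9.1 on the high salt arrays, against 7.49, 9.152 and 7.454 on the low salt arrays. Pdpn, a membrane glycoprotein of leptomeningeal and other cells, was the least close of those named. It read 10.7, 11.2 and 11.0 on the high salt arrays, against 9.48, 10.8 and 8.98 on the low salt arrays. With 6 arrays and 6186 genes, close matches occur without any tie between genes.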

How the data were processed

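The deposited table holds 1 log2 value per probe set and array, made by the authors with RMA (background correction, scaling between arrays and summary of probes), per the submitters' processing notes. Its version was not stated. The base of 2 is inferred from the span of the deposited log2 values. Of 15923 rows, 57 control probe sets were left out. Symbols came from the platform's annotation, and a probe set with several symbols named no gene (0 of these included a member).

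The diets were compared with limma (version 3.58.1, R version 4.3.3; lmFit and eBayes, 3 arrays against 3, no block), with Benjamini-Hochberg adjustment over 15866 probe sets. Differences are high salt minus low salt. The replicates are pools of separate rats, and their number limits the precision. The steps were also tested on simulated data.

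The members and gene lists were chosen with earlier results of these data known. Genes named from a list were its brightest 3, its 3 of lowest p and some fixed marker genes, a part of which is described. Likeness was sought for the oligodendrocyte mean and Pmp22, and for Mbp after the values were seen. Alternatives were each array left out, quantile normalization, median centring, array weights, a block for the replicate number, variances fitted as trended and robust, only probe sets above the 40th percentile of mean brightness, averaging a gene's probe sets, and adjustment over 1 probe set per gene.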

Additional observations from a re-analysis of the deposited data

How the results depend on the processing

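No member passed the threshold in any of the 14 alternatives that tested it, and the count of probe sets called was 0 in each alternative that gives one (limma, Benjamini-Hochberg), with 366 (without high salt replicate 1) to 2722 (without low salt replicate 2) at an unadjusted p below 0.05. The lowest adjusted p over all probe sets was 0.05015 without low salt replicate 2, against 0.540 with all arrays. Of 96 member values under alternatives, 94 kept their direction. The exceptions were Cldn11 after quantile normalization (-0.0036) and Mobp without low salt replicate 3 (-0.071), which ran to 0.76 without low salt replicate 2. Part of the 96 could not change direction. The brightness filter, the trended and robust variances, the replicate block and the adjustment over 1 probe set per gene leave each difference as it was. Averaging probe sets does so for Mag and Mog, which have 1 each. The adjusted p of Mbp (limma) ran from 0.140, without low salt replicate 2, to 0.999, without low salt replicate 1. Averaging a gene's probe sets took Mobp to 0.05 and Cldn11 to 0.06. The median difference of the 6 oligodendrocyte members was 0.0098 after quantile normalization, 0.06 with probe sets averaged, and from -0.0021 to 0.41 with 1 array left out. With 1 array left out, the oligodendrocyte mean minus Pmp22 differed by 0.20 to 0.56. With array weights, whose estimation stopped before it converged, Mobp stood at 0.89. The filter at the 40th percentile removes Mag and Mog. The titles number the arrays, but no label says that a number pairs pools, and the deviations of same-numbered arrays correlated at 0.04, -0.27 and 0.04. With the replicate block Mbp differed by 1.23 ± 0.29 (SE) at an adjusted p of 0.893 (limma), and the block changed no call. The cause of these changes was not tested. The number of arrays and the dimness of Mog, Mag and the other probe sets limit what can be seen.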
